A study of Rattus norvegicus with 20 samples.

Results

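The genes described here encode the translation initiation factors, the proteins that bring a ribosome, the initiator tRNA and an mRNA together and place the ribosome on the start codon. They were taken as every array spot whose annotated symbol begins with Eif1 to Eif6, leaving out the eIF2 kinases (Eif2ak) and a pseudogene of Eif5. This gave 125 spots of 47 genes, out of 13292 genes tested. Another 3 spots, annotated with the old symbols Eif2c2, Eif2c3 and Eif2c4, belong to Argonaute genes and were not counted as members. All 47 genes passed the filter of at least 3 values in each group, and all 47 had a value in every sample. The spots tied to a gene numbered 1 for 30 genes, 2 to 4 for 10 genes and 10 or 11 for 7 genes. No spot was named Eif1.

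RNA came from the arcuate nucleus, a hypothalamic centre for feeding, growth and pituitary control, of 20 male Sprague-Dawley rats killed on postnatal day 15. The SNS group had prenatal saline, no spasms and postnatal saline. The BNS group had prenatal betamethasone, a synthetic glucocorticoid, at 0.4 mg/kg on gestational day 15, followed by no spasms and postnatal saline. The BYS, BYA and BYP groups had the same betamethasone exposure and then spasms triggered by NMDA on postnatal days 12, 13 and 15, with saline in BYS, ACTH (the pituitary hormone given against infantile spasms) in BYA, and PMX53 (a peptide antagonist of the complement receptor C5ar1) in BYP. Each group held 4 rats. The sources differ on the day on which treatment began. Nothing in them says whether the 4 rats of a group came from separate litters, so the p-values measure the spread between these samples only.

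Initiation in the cytoplasm begins when eIF2 carries the initiator tRNA to the small ribosomal subunit, to which eIF1, eIF1A, eIF3 and eIF5 are also bound. The eIF4 factors bind the cap of the mRNA and unwind it, and the small subunit then scans to a start codon, where eIF5B joins the large subunit. In neurons both the cap-binding step, through the eIF4E-binding proteins below mTOR, and the recycling of eIF2 by eIF2B are known points of control during stress and synaptic plasticity.

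Of the 11 arrays 9 held 2 samples and 2 held 1 of these samples (SNS replicates 1 and 2), in Cy3 for replicates 1 and 3 of a group and in Cy5 for replicates 2 and 4. BNS, BYS, BYA and BYP each lay on a slide of their own, so slide and group cannot be told apart for these groups. The dye label of SNS replicate 2, the only one of its group on its slide, is in doubt. Each sample had values at 34107 to 44249 spots. Of 9 arcuate neuron markers, Agrp, Npy and Pomc had group means 4.51 to 6.69 log2 units above the sample median and Cartpt, Tac3, Th and Ghrh 1.00 to 4.20 above it, while Kiss1 (-1.33 to -1.04) and Slc6a3 (-2.61 to -1.71) lay below it. The mean level of 5 of the 6 listed oligodendrocyte markers ranged from 0.71 to 1.94 in BYS, from -0.16 to 0.78 in BNS and from 0.55 to 1.71 in SNS. Mog, Mobp and Mag had higher group means in BYS than in BNS, Cnp was at 1.28 and 1.31, and Mbp was at 2.39 in BYS and 2.83 in BNS. Their part in the results below was not tested. In tissue RNA, fewer cells of a type and less RNA per cell cannot be told apart. Levels are log2 intensities with the median of the sample set to 0, and a difference is the first group minus the second with the SE of a limma fit (n = 4 rats per group, two-sided, Benjamini-Hochberg adjusted over all genes). A gene is called changed at an adjusted p under 0.05. Groups are said not to overlap where every sample of one lies above every sample of the other. Over all genes this was counted for BYA against BNS only.

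BYS against BNS sets rats with spasms against rats that were primed alike and had none. Of the 47 genes, 4 were lower in BYS and 0 were higher by limma. The 4 were Eif1a, Eif2b2, Eif4a2 and Eif4g2, and their levels were 1.59 to 2.24 times lower in BYS. Of all genes, 6.61% were called lower and 8.84% higher, against 8.51% and 0.0% of the initiation factor genes. Leaving out 1 sample moved the share of all genes called higher to 4.35% without BNS replicate 2, 3.09% without BNS replicate 4 and 5.6% without BYS replicate 2, and the share called lower to 4.36% without BNS replicate 4. With SNS replicate 2 taken as Cy3 the share called higher was 21.0%. At an unadjusted p under 0.05, 6 members were lower and 3 were higher, against 11.5% of all genes lower and 22.4% higher. The methods' t-test, after the same adjustment, called 1 member lower and 0 higher, against 2.23% and 1.04% of all genes. The split moved with the scaling. Centring on the 75th percentile gave 4 members lower and 2 higher (Eif4e2 and Eif4g1), against 5.36% and 9.19% of all genes. Quantile normalization gave 3 lower, without Eif4g2, and 6 higher, against 2.69% and 10.3% of all genes. The median difference of the 47 genes was 0.01, against 0.18 over all genes. The members were bright, with a median mean level at percentile 78.0 of all genes and 27 of the 47 above percentile 75. With the dimmest 25% of genes left out, 1009 of 9969 genes were called lower and 868 higher. The median difference over all those genes was 0.053.

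**Figure D1:**
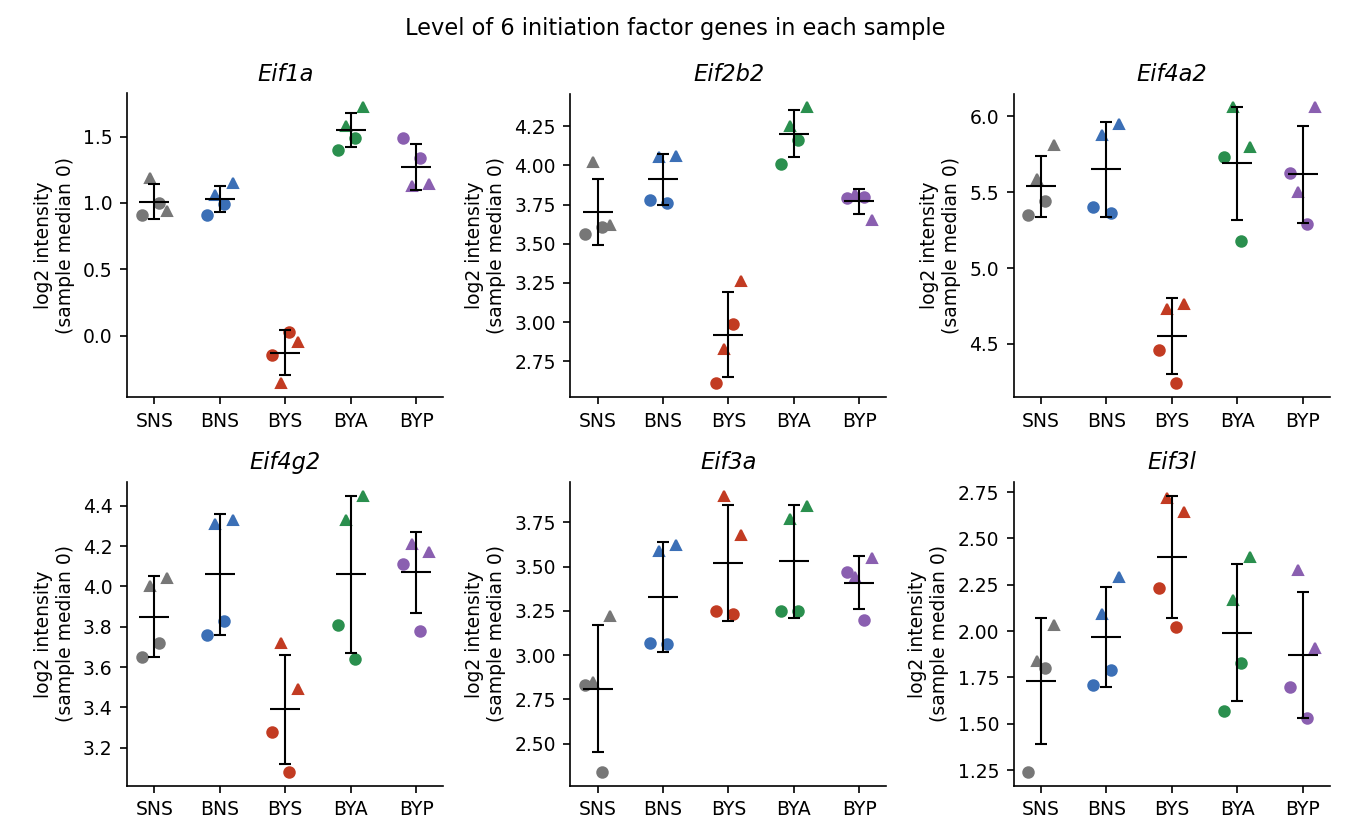
Level (log2 intensity, sample median 0) of 6 initiation factor genes in the 20 samples, by group. Circles are Cy3 samples, triangles Cy5 samples, and the bar with whiskers is the mean and SD of 4 rats. The 4 BYS samples of Eif1a lie between -0.36 and 0.03, below all 16 samples of the other groups.

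Eif1a encodes eIF1A, which binds the small ribosomal subunit and helps it scan and settle on a start codon. Its log2 level in BYS was -0.15, -0.36, 0.03 and -0.05 in replicates 1 to 4. In BNS it was 0.91, 1.06, 0.99 and 1.15, and in SNS it was 0.91, 1.19, 1.00 and 0.94. Every BYS sample was lower than every BNS and SNS sample, so the groups did not overlap. The level fell by 1.16 ± 0.16 (SE) in BYS against BNS (limma adjusted p = 2.59e-04). The Cy3 samples alone differed by -1.01 and the Cy5 samples alone by -1.32. The X-linked copy Eif1ax, which encodes a nearly identical protein, was measured by 2 other spots, and its group means were 0.42 in BYS and 0.13 in BNS. Whether the Eif1a probe also binds Eif1ax RNA is not given in the sources used here.

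Eif2b2 encodes the beta subunit of eIF2B, the exchange factor that reloads eIF2 with GTP, and its human counterpart is mutated in vanishing white matter disease. Its log2 level in BYS was 2.61, 2.83, 2.99 and 3.26 in replicates 1 to 4. In BNS it was 3.78, 4.05, 3.76 and 4.06. The lowest BNS sample was above the highest BYS sample, and the level fell by 0.99 ± 0.16 (SE) in BYS (limma adjusted p = 6.47e-04). The other 4 eIF2B subunits were not called, with differences of 0.20 ± 0.20 for Eif2b1, -0.01 ± 0.13 for Eif2b3, 0.06 ± 0.16 for Eif2b4 and -0.23 ± 0.21 for Eif2b5 (SE).

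Eif4a2 encodes an RNA helicase of the cap complex, and Eif4g2 encodes a scaffold protein (also called DAP5 or p97) that resembles eIF4G but lacks its site for eIF4E. The log2 level of Eif4a2 in BYS was 4.46, 4.73, 4.24 and 4.76, against 5.40, 5.88, 5.36 and 5.95 in BNS. It fell by 1.10 ± 0.19 (SE) in BYS (limma adjusted p = 0.0012), with no overlap between the groups. Its close relatives Eif4a1 and Eif4a3 did not pass the test, with differences of 0.21 and -0.18. The log2 level of Eif4g2 in BYS was 3.28, 3.72, 3.08 and 3.49, against 3.76, 4.31, 3.83 and 4.33 in BNS. The highest BYS sample of Eif4g2 lay just below the lowest BNS sample, and the level fell by 0.67 ± 0.15 (SE, limma adjusted p = 0.00818). The other eIF4G genes were not called, with differences of 0.48 ± 0.18 for Eif4g1 (limma adjusted p = 0.0775, and 0.0468 without BYS replicate 1) and -0.19 ± 0.23 for Eif4g3. Samples of BYS and BNS did not overlap for Eif2b1 and Eif4e2 either. Both were higher in BYS and neither was called (limma adjusted p = 0.469 and 0.0755).

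In no role did all members, or most of them, pass the test in BYS against BNS, where 6.61% of all genes were called lower and 8.84% higher. None of the 13 eIF3 subunits passed the test, and 10 of the 13 differences were above 0, with a median of 0.18, which is the median over all genes. The 3 measured eIF2 subunits had differences of -0.25 to 0.00 and none passed. Of the 11 cap complex genes 2 were lower, Eif4a2 and Eif4g2, and the rest ranged from -0.42 for Eif4b to 0.48 for Eif4g1. Neither Eif4a2 nor Eif4g2 was called once neighbouring spots of like level were subtracted (limma adjusted p = 0.557 and 0.757). The median of the 11 was -0.18. The 4 inhibitors of the cap complex ranged from -0.43 to 0.43, none called. Among them Eif4ebp2, whose protein is the main eIF4E-binding protein of the mouse brain, was at 0.86 ± 0.20 (SD) in BYS and 0.43 ± 0.30 in BNS. Eif5a, Eif5a2 and Eif6 had differences of 0.00 to 0.33, none called.

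**Figure D2:**
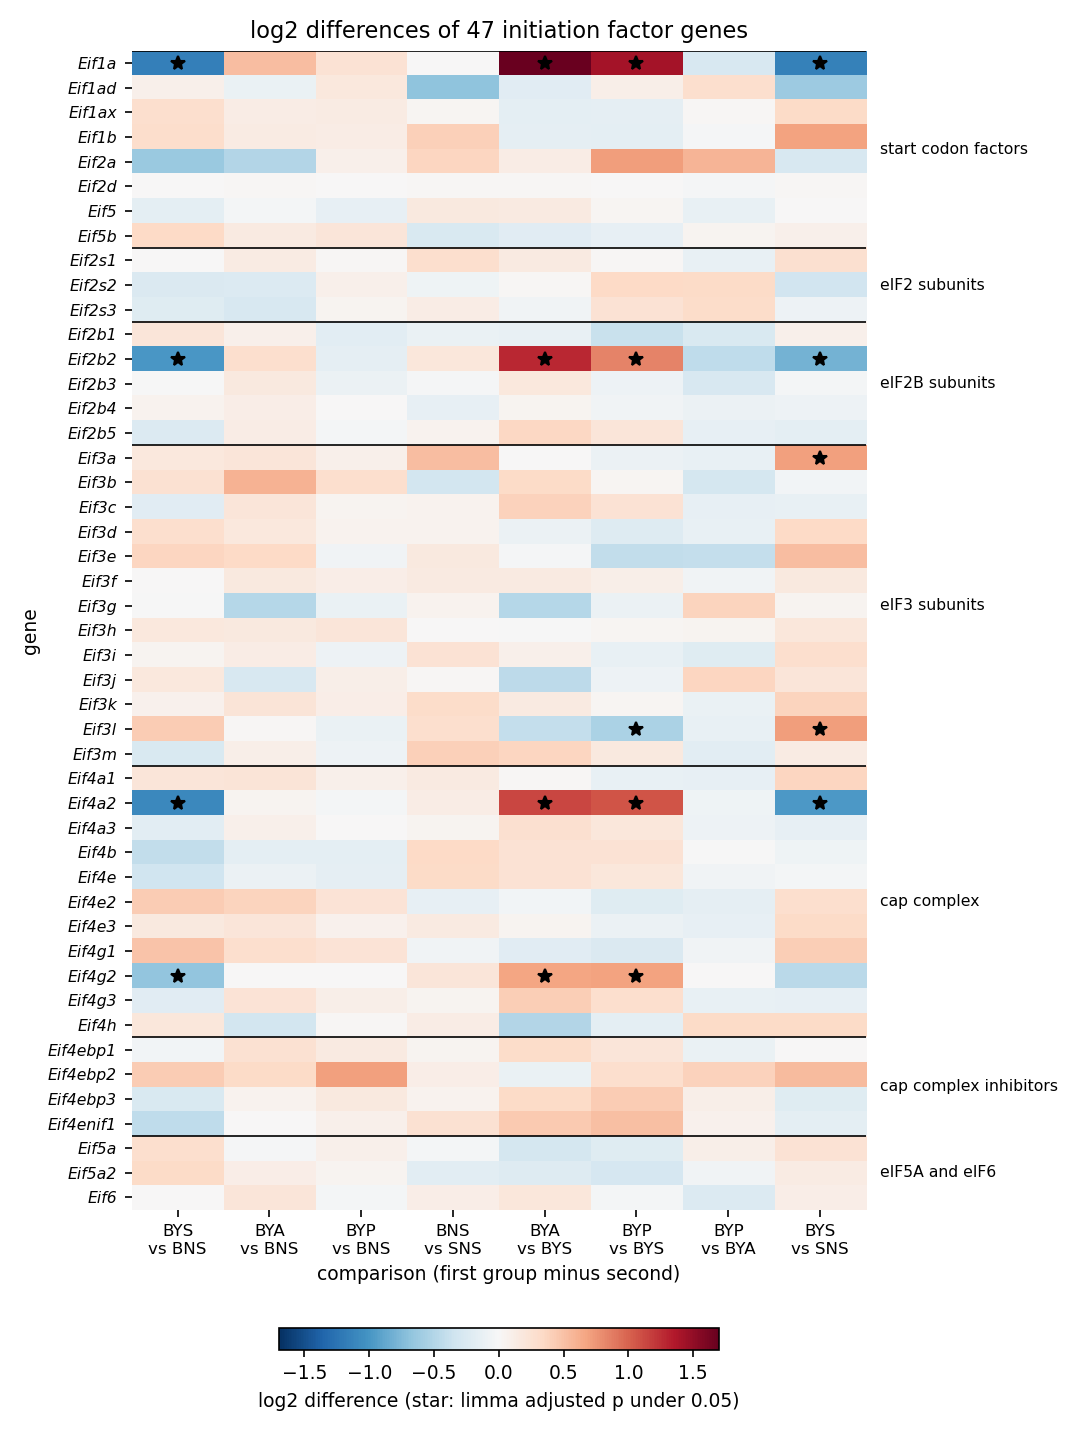
Log2 differences of the 47 initiation factor genes (rows, grouped by role) in 8 comparisons (columns, first group minus second). Red is higher and blue lower in the first group, and a star marks a limma adjusted p under 0.05. The stars stand in the 4 columns that hold BYS, on 6 genes, and there are 0 in the other columns.

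The treated groups were set against BYS to ask how ACTH and PMX53 rats with spasms differed from saline rats with spasms. In BYA against BYS, 4 genes were higher and 0 were lower, which is 8.51% and 0.0% of the members against 4.98% and 3.66% of all genes. In BYP against BYS, 4 genes were higher and 1 was lower, which is 8.51% and 2.13% against 5.36% and 4.33% of all genes. The 4 higher genes were Eif1a, Eif2b2, Eif4a2 and Eif4g2 in both. With quantile normalization 3 members were higher and 1 lower in BYA, against 1.87% and 2.91% of all genes, and 3 were higher and 2 lower in BYP, against 2.16% and 4.04%, again without Eif4g2. With 75th percentile centring 4 were higher and 1 lower in each, while of all genes 3.57% were higher and 5.88% lower in BYA and 4.0% and 6.71% in BYP. These comparisons and BYS against BNS share the 4 BYS samples, so they are not separate observations of the low BYS levels.

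The log2 level of Eif1a was 1.40, 1.58, 1.49 and 1.72 in BYA and 1.49, 1.13, 1.34 and 1.14 in BYP. All 8 treated samples were far above the BYS samples. Eif1a was higher by 1.68 ± 0.16 (SE) in BYA (limma adjusted p = 1.24e-05) and by 1.41 ± 0.16 in BYP (limma adjusted p = 7.69e-05). The log2 level of Eif2b2 was 4.01, 4.25, 4.16 and 4.37 in BYA, higher than in BYS by 1.28 ± 0.16 (limma adjusted p = 8.10e-05). In BYP it was 3.79, 3.82, 3.80 and 3.65, higher by 0.84 ± 0.16 (limma adjusted p = 0.00282). Neither treated group overlapped with BYS for these genes.

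The log2 level of Eif4a2 was 5.73, 6.06, 5.18 and 5.80 in BYA and 5.63, 5.50, 5.29 and 6.06 in BYP. It was higher than in BYS by 1.14 ± 0.19 and 1.07 ± 0.19 (SE, limma adjusted p = 8.98e-04 and 0.00181), again without overlap. Eif4g2 was higher by 0.67 ± 0.15 in BYA (limma adjusted p = 0.0103) and by 0.68 ± 0.15 in BYP (limma adjusted p = 0.00996). Of 15 other settings the call held in 8 for BYA and in 9 for BYP, and once neighbouring spots of like level were subtracted the BYA difference was -0.01 (limma adjusted p = 0.982). BYA replicate 3, at 3.64, lay below BYS replicate 2, at 3.72, so the groups overlapped for Eif4g2 in BYA.

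Eif3l, a subunit of eIF3, was the member called lower in BYP against BYS. Its log2 level was 1.70, 2.33, 1.53 and 1.91 in BYP and 2.23, 2.72, 2.02 and 2.64 in BYS, and the groups overlapped. It fell by 0.54 ± 0.16 (SE, limma adjusted p = 0.0399). The call was lost without any one of BYP replicates 1, 3 and 4 or BYS replicates 1, 2 and 4 (limma adjusted p = 0.0533 to 0.0957), and held without BYP replicate 2 or BYS replicate 3.

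The treated groups against BNS, and BYP against BYA, gave 0 calls among the members by limma. Of all genes, 0.241% were called in BYA against BNS, 0.0301% in BYP against BNS and 0.0301% in BYP against BYA. At an unadjusted p under 0.05 the members numbered 2, 1 and 1, against 9.74%, 5.45% and 4.62% of all genes. The methods' t-test without adjustment gave 5, 2 and 4 members, against 8.87%, 6.37% and 4.14% of all genes. The 3 smallest p-values of BYA against BNS belonged to Eif1a, Eif4e2, which encodes a cap-binding protein that can hold translation back, and Eif3b, a core subunit of eIF3. Their differences were 0.52 ± 0.16, 0.38 ± 0.16 and 0.59 ± 0.30 (SE, limma adjusted p = 0.257, 0.446 and 0.556). The 4 BYA samples all lay above the BNS samples for these 3 genes and for Eif6, as they did for 5.45% of the 12650 genes with a value in all 8 samples.

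In BYP against BNS the smallest p-value belonged to Eif4ebp2, with a difference of 0.70 ± 0.29 (SE, limma adjusted p = 0.8). Its BYP samples were spread from 0.36 to 1.95 and overlapped with BNS. Eif1a and Eif4e2 followed, with differences of 0.24 ± 0.16 and 0.23 ± 0.16. In BYP against BYA the smallest p-values were those of Eif2b2, Eif2b3 and Eif6, whose protein keeps the large ribosomal subunit from joining too early. Their differences were -0.43 ± 0.16, -0.27 ± 0.13 and -0.23 ± 0.12 (SE, limma adjusted p = 0.934 for each). The BYP samples of Eif2b2 and of Eif6 all lay below the BYA samples, and the share of all genes that did so was not counted.

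BNS against SNS set rats with prenatal betamethasone against rats with prenatal saline, both without spasms and on separate slides. It gave 0 calls among the members by limma, against 0.00752% of all genes. At an unadjusted p under 0.05, 1 member was higher and 1 lower, against 14.8% of all genes in either direction, and the methods' t-test without adjustment gave 4, against 6.79%. Eif3a, which encodes a scaffold subunit of eIF3, was at 2.83, 2.85, 2.34 and 3.22 in SNS and at 3.07, 3.59, 3.06 and 3.62 in BNS. The difference was 0.52 ± 0.17 (SE, limma adjusted p = 0.247), and the groups overlapped. Eif1ad, which encodes a nuclear protein with a domain like that of eIF1A, was at -0.10, -0.53, -0.17 and -0.36 in SNS and at -1.01, -1.06, -0.83 and -1.06 in BNS. The groups did not overlap, and the difference of -0.69 ± 0.23 (SE) did not pass (limma adjusted p = 0.247). Eif4b, which encodes a partner of the eIF4A helicases, followed with 0.34 ± 0.16 (SE, limma adjusted p = 0.343).

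BYS against SNS differed in the prenatal exposure, the spasms and the slides. Of the members 3 were lower and 2 higher, which is 6.38% and 4.26%, against 5.18% of all genes called lower and 2.39% higher. The share called higher was 8.26% without SNS replicate 2, the sample of doubtful dye, and 14.2% with it taken as Cy3. It was 1.35% without SNS replicate 1, 1.28% without SNS replicate 4 and 1.0% without BYS replicate 2. Eif1a fell by 1.15 ± 0.16, Eif4a2 by 0.98 ± 0.18 and Eif2b2 by 0.80 ± 0.15 (SE, limma adjusted p = 1.96e-04, 0.00223 and 0.00272), each without overlap. Eif4g2 did not pass, with -0.46 ± 0.14 (limma adjusted p = 0.0598), and passed without SNS replicate 2 (-0.48, limma adjusted p = 0.0272). Eif3a rose by 0.70 ± 0.17 and Eif3l by 0.71 ± 0.15 (SE, limma adjusted p = 0.0171 and 0.00685). The BYS samples of Eif3a, at 3.25, 3.90, 3.23 and 3.68, all lay above the SNS samples, the highest of which was at 3.22, and those of Eif3l overlapped with SNS.

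The BYS values varied with place on the array, and every call above involves BYS. The deposited spots are numbered, and over all spots the BYS minus BNS differences of spots that were 85 numbers apart had a correlation of 0.423, against -0.01 for spots 42 apart. The same correlation at 85 was 0.254 for BYA minus BNS, 0.125 for BNS minus SNS and 0.093 for BYP minus BNS. Between 40 and 199 numbers apart, the correlation was highest at 170 for BYA minus BNS and at 85 for the others. An array row was therefore taken to hold 85 spots. Which genes the neighbouring spots belong to was not checked. The 7 member genes with 10 or 11 spots, each gene under 1 transcript accession, show how far spots of 1 transcript can differ.

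The 10 spots of Eif3f, an eIF3 subunit, gave BYS minus BNS differences from -0.71 to 0.53 (SD 0.46). The same 10 spots gave BYP minus BNS differences from 0.05 to 0.24 (SD 0.05). The 10 spots of Eif2b4 gave -0.57 to 0.50 in BYS minus BNS and -0.07 to 0.17 in BYP minus BNS. Over the 7 genes the median SD between spots of a gene was 0.36 for BYS minus BNS, 0.18 for BYA minus BNS, 0.14 for BNS minus SNS and 0.06 for BYP minus BNS. The averages of these genes rest on spots across the array, while Eif1a, Eif2b2, Eif4a2, Eif3a and Eif3l each had 1 spot.

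**Figure D3:**
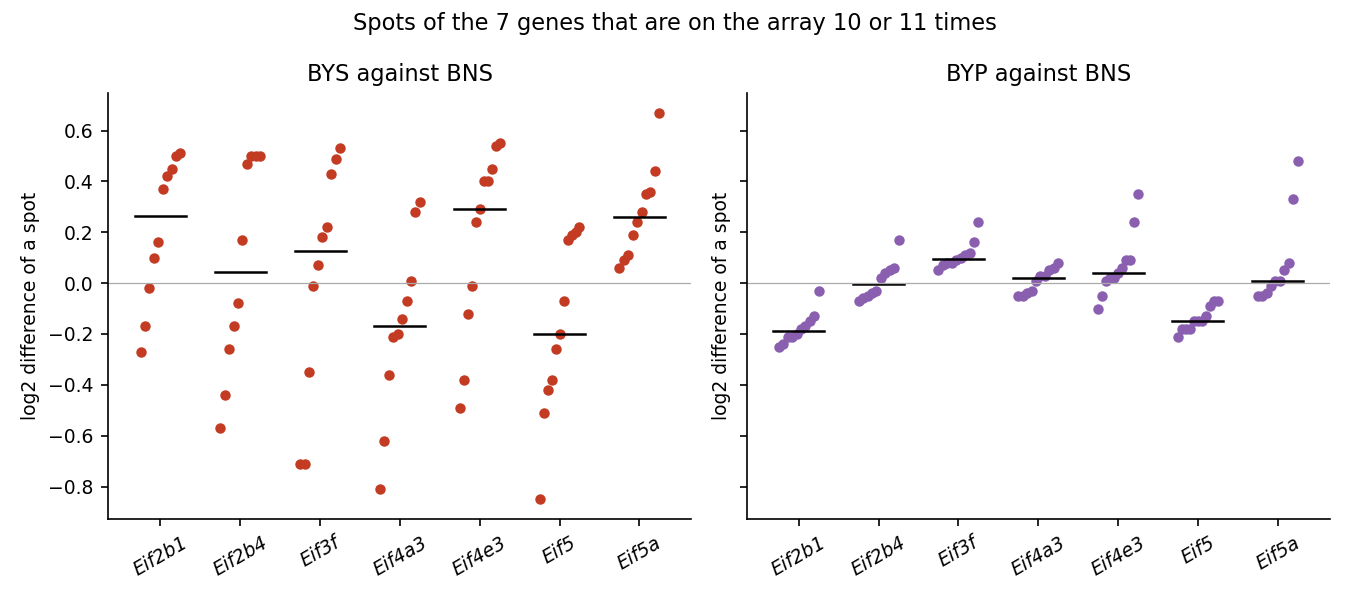
Log2 difference of each spot (points) of the 7 member genes that are on the array 10 or 11 times, for BYS minus BNS at left and BYP minus BNS at right, with the median of the spots as a line. The spots of Eif3f run from -0.71 to 0.53 at left and from 0.05 to 0.24 at right.

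Each member spot was therefore set beside its neighbours, taken as the 30 spots closest to it in mean level within 24 rows and 6 columns to each side. At the 1 spot of Eif4a2 the BYS minus BNS difference was -1.10 and the median of its neighbours was -0.95. At the spot of Eif2b2 the difference was -0.99 and the neighbours were at -0.61. The 3 complete spots of Eif4g2 had differences of -0.85, -0.22 and -0.94, with neighbours at -0.75, -0.47 and -0.60. At the spot of Eif1a the difference was -1.16 and the neighbours were at -0.49. The spot of Eif3l, at 0.43, had neighbours at 0.41. Over the 47 genes the difference of a gene and that of its neighbours had a Pearson correlation of 0.82 in BYS minus BNS, 0.55 in BYA minus BNS and in BNS minus SNS, 0.59 in BYP minus BYA and 0.27 in BYP minus BNS, across genes that share samples and array positions and are not independent.

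**Figure D4:**
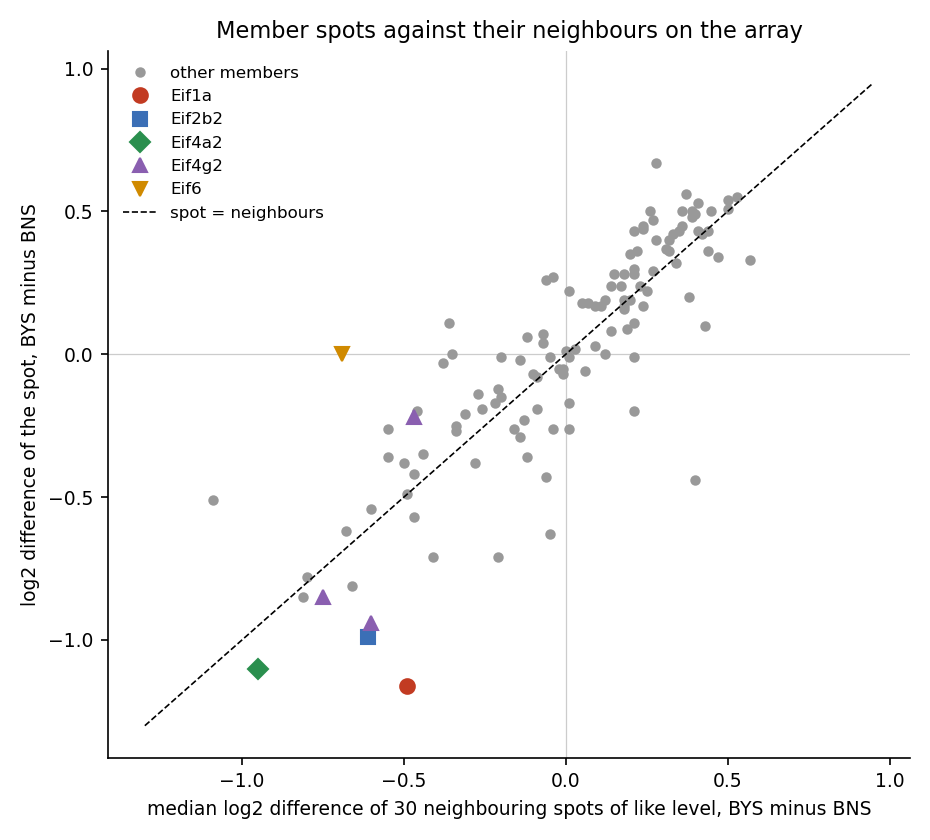
BYS minus BNS log2 difference of the 124 complete member spots (vertical) against the median difference of the 30 neighbouring spots of like level (horizontal), with the line of equality dashed. Eif1a, at -1.16, lies below its neighbours at -0.49, while Eif4a2 and the spots of Eif4g2 lie nearer to the line.

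When the local deviation of these neighbours was subtracted from every sample, a step chosen after seeing the data, Eif1a was still called in all 4 comparisons with BYS. The log2 level of Eif1a in BYS was then 0.38, 0.01, 0.37 and 0.04, and the lowest of the 16 samples in other groups was at 0.79. It fell by 0.69 ± 0.11 (SE) against BNS (limma adjusted p = 0.00288) and by 0.73 ± 0.11 against SNS (limma adjusted p = 0.00177). It was higher than in BYS by 1.21 ± 0.11 in BYA and by 1.05 ± 0.11 in BYP (SE, limma adjusted p = 3.93e-05 and 1.60e-04). Eif1a was then called in BYA against BNS as well, with 0.52 ± 0.11 (limma adjusted p = 0.0167). After this step 5.44% of all genes were called in BYS against BNS, 2.45% in BYS against SNS, 2.02% in BYA against BYS, 2.65% in BYP against BYS and 3.54% in BYA against BNS.

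The other calls were mostly lost under it. Eif4a2 differed by -0.16 ± 0.15 in BYS against BNS (limma adjusted p = 0.557) and Eif4g2 by -0.07 ± 0.11 (limma adjusted p = 0.757). Eif2b2 differed by -0.39 ± 0.12 (limma adjusted p = 0.0706), and was called in BYA against BYS alone, with 0.57 ± 0.12 (limma adjusted p = 0.0226). Eif3l differed by 0.19 and Eif3a by 0.43 in BYS against SNS (limma adjusted p = 0.437 and 0.0639). Eif6, whose spot read 0.00 among neighbours at -0.69, became higher in BYS, by 0.69 ± 0.15 against BNS (limma adjusted p = 0.0145), and did not pass when all neighbours were used (0.42, limma adjusted p = 0.0769). Its BYS levels were then 4.80 and 4.66 on one array and 4.29 and 4.13 on the other, and BYA replicates 3 and 4, at 4.54 and 4.39, reached into that range.

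**Figure D5:**
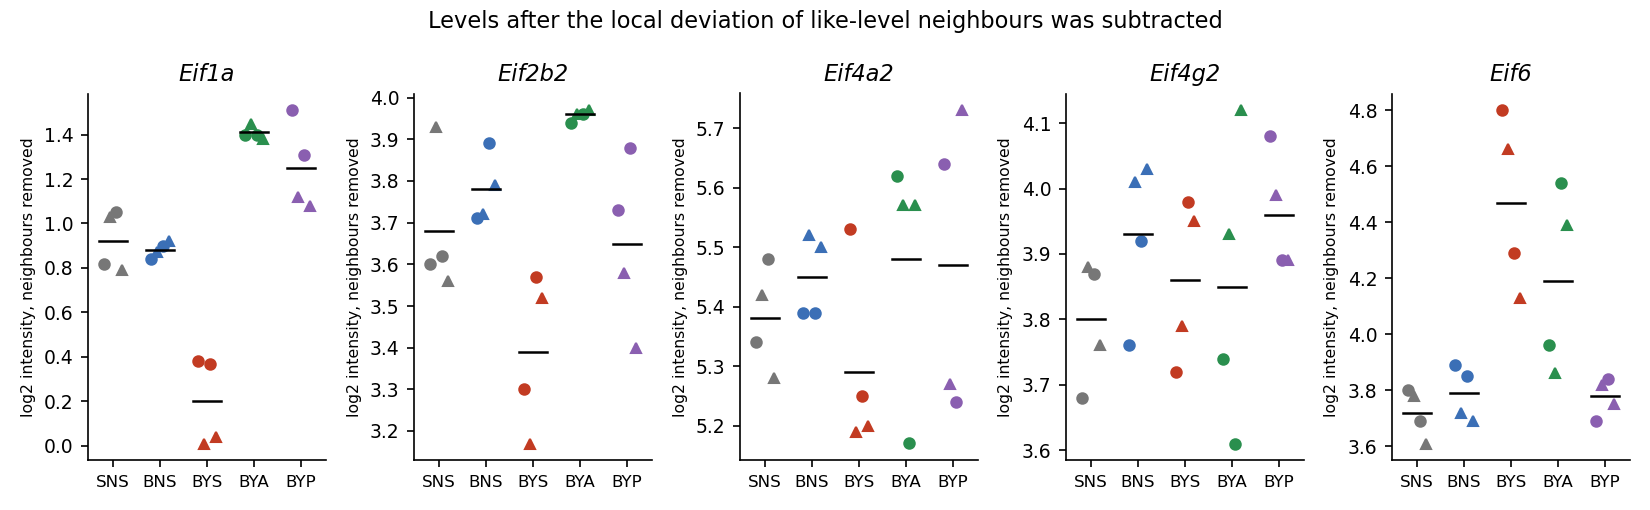
Log2 intensity of 5 initiation factor genes in the 20 samples after the local deviation of like-level neighbours was subtracted, by group. Circles are Cy3 samples, triangles Cy5 samples and lines are means of 4 rats. Eif1a in BYS lies between 0.01 and 0.38 and all other samples at or above 0.79, while the groups overlap for Eif4a2 and Eif4g2.

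With the slide in place of the array as a random block, Eif1a, Eif2b2 and Eif4a2 were called in BYS against BNS (limma adjusted p = 0.00599, 0.0184 and 0.0195), against 2.26% of all genes, and Eif4g2 was not (0.0715). The spread between slides rests there on SNS replicate 2 against the other SNS samples.

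The promoters of the 4 genes low in BYS are printed because these members were called together. Each runs from 250 bases before to 50 after the RefSeq start (build GRCr8): Eif1a at chr18:41512048-41512347 on the plus strand, Eif2b2 at chr6:110597729-110598028 on the plus strand, Eif4a2 at chr11:91275274-91275573 on the minus strand and Eif4g2 at chr1:174628203-174628502 on the minus strand. Another start listed for Eif1a is not shown. The Eif4a2 window lies inside the span listed for its gene (chr11:91268730-91276738) and not at its end. Capitals mark matches, on either strand, to the GC box GGGCGG, the CCAAT box CCAAT and the TATA box TATAAA.
Eif1a: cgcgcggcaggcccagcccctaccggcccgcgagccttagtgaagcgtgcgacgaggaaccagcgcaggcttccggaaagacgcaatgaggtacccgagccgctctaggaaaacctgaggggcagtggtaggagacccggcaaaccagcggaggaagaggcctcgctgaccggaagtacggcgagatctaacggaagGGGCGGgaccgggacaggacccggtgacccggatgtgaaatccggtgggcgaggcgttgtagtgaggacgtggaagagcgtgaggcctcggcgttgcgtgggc
Eif2b2: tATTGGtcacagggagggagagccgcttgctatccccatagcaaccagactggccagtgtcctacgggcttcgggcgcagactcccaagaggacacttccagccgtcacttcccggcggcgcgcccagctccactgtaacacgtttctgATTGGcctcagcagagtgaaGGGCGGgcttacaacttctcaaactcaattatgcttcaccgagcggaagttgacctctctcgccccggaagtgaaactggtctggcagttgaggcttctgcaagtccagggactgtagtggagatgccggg
Eif4a2: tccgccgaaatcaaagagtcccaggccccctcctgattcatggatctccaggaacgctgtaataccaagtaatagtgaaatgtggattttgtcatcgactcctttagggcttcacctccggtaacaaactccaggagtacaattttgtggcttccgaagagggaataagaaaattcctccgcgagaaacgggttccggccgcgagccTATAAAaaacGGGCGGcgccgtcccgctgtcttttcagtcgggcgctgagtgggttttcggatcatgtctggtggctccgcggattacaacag
Eif4g2: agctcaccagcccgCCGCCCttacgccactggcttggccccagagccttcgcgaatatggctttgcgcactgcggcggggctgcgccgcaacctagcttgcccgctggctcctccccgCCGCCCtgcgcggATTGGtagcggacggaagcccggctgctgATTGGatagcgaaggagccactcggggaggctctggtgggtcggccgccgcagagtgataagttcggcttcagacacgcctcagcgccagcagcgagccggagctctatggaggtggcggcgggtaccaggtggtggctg
The GC box was present 1 time in Eif1a, 1 time in Eif2b2, 1 time in Eif4a2 and 2 times in Eif4g2. It was present in 29 of the 42 member promoters found (69.0%) and in 34.9% of 27457 promoters. The median GC content was 60.5% in member promoters and 52.3% in all promoters, and its part in the motif shares was not tested. CCAAT stood in Eif2b2 and Eif4g2 2 times each, in 31.0% of member promoters and 37.7% of all, and TATAAA in Eif4a2 1 time, in 14.3% of all. The cAMP response element TGACGTCA was in none of the 4 and in 1.91% of all promoters. The E box CACGTG was in none of the 4, in 21.4% of member promoters and in 6.65% of all. The motifs do not overlap in these 4 promoters.

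Other genes of the pathway were counted from lists. In BYS against BNS 8.84% of all genes were called higher and 6.61% lower. Among 16 eIF2 kinases and stress response genes, 1 was higher (6.25%) and 2 were lower (12.5%) in that comparison. The lower genes were Eif2ak4, which encodes the kinase GCN2 that senses uncharged tRNA and phosphorylates eIF2, and Impact, which encodes an inhibitor of GCN2. Eif2ak4 fell by 1.72 ± 0.25 and Impact by 1.01 ± 0.19 (SE, limma adjusted p = 3.45e-04 and 0.003). After the neighbours were subtracted both were still called, with differences of -0.75 and -0.47 (limma adjusted p = 0.0106 and 0.0313). The higher gene, Ppp1r15b, which encodes a targeting subunit of the eIF2 phosphatase, had a difference of 1.02 ± 0.30 (SE) and was lost (limma adjusted p = 0.891). It was dim, at percentile 8.7 of mean level.

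In BYA against BYS, 6 of the 16 (37.5%) were higher and 1 (6.25%) was lower, against 4.98% and 3.66% of all genes. The largest differences among the higher genes were 1.26 for Impact, 1.02 for Eif2ak4 and 0.85 for Eif2ak1. Impact was still called once like-level neighbours were subtracted (0.52, limma adjusted p = 0.0349), while Eif2ak4 and Eif2ak1 were not (0.286 and 0.961). Atf4 and Ddit3, transcription factors of the stress response, were also higher. Their differences were 0.55 ± 0.17 and 0.54 ± 0.16 (SE, limma adjusted p = 0.0459 and 0.0427), and neither was called once the neighbours were subtracted (0.326 and 0.979). The same list held 4 higher genes and 1 lower in BYP against BYS, against 5.36% and 4.33% of all genes. The higher were Eif2ak4 (1.65), Impact (1.04), Atf4 (0.65) and Ddit3 (0.56). Eif2ak4 was still called in BYP once like-level neighbours were subtracted (0.72, limma adjusted p = 0.0174). Impact, Atf4 and Ddit3 were not (limma adjusted p = 0.0767, 0.138 and 0.527). For BYS against BNS the shares of all genes were 8.84% higher and 6.61% lower. Among 17 genes of mTOR signalling to the cap complex, 2 were higher (11.8%) and 1 was lower (5.88%) in that comparison. The lower was Mlst8, a subunit of both mTOR complexes, with -0.78 ± 0.17 (SE, limma adjusted p = 0.00597), and the higher were Deptor and Tsc1, both of which hold mTOR back. None of the 3 was called after like-level neighbours were subtracted, and Mlst8 was called when all neighbours were used (-0.45, limma adjusted p = 0.0356). Deptor and Tsc1 were dim, at percentiles 21.5 and 5.6 of mean level. The intensity shared by the most spots was 0.2101 and 0.17 in BYS replicates 1 and 3. In BNS replicates 1 and 3 it was 0.1037 and 0.1231. Its part in the calls of dim genes was not tested.

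Of 12 measured poly(A)-binding and helper genes, 3 were lower in BYS against BNS (Abcf1, Pabpc4 and Paip1) and 1 was higher (Paip2b). Of 11 elongation and release factors, 2 (18.2%) were lower and 0 were higher, against the same shares of all genes. The lower were Gspt1 and Gspt2, which both encode the release factor eRF3. Of 68 cytosolic ribosomal protein genes, 12 were lower and 0 higher in BYS against BNS, against 6.61% and 8.84% of all genes, with a median difference of -0.17 against 0.18 over all genes. Against BYS 12 (17.6%) were higher in BYA and 13 (19.1%) in BYP, while of all genes 4.98% and 5.36% were. In BYS against BNS a fit that took the slide as random block left 2 lower, against 2.26% of all genes in either direction. After all neighbours were subtracted 9 were lower and 0 higher, against 3.38% and 7.68% of all genes, and after those of like level were subtracted 4 were lower and 0 higher, against 2.75% and 2.69%. In BYS against BNS, 12 genes of the 4 lists other than the ribosomal one were called, and 2 of these 12, Eif2ak4 and Impact, were called after like-level neighbours were subtracted. After all neighbours were subtracted 6 of the 12 were called, these 2 with Mlst8, Abcf1, Pabpc4 and Gspt1. Of all genes, 5.44% were called after like-level neighbours were subtracted. With all neighbours subtracted, 7.68% were called higher and 3.38% lower.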

How the data were processed

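RNA of 20 rats was hybridised to 11 Agilent arrays on 6 slides. The authors extracted the scans with Agilent Feature Extraction 10.7.3.1. The deposited table gives 1 linear intensity value per spot and sample, with background correction and normalization not given in the sources used here. It lists 44254 spots, 32107 of them complete in the 20 samples. With arrays, precision depends on the number of samples.

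Spots were named through the platform annotation and RefSeq's rat gene table. Values were taken to log2, spots were averaged per gene (complete spots where there were any), and each sample's median over genes was subtracted. Of 13292 genes, 12493 had complete spots, and the other 799 used the spot with the most values. Genes were tested with limma 3.58.1 (R 4.3.3) in 1 model of the 5 groups and the dye, in which samples of an array formed a random block (correlation 0.436). The script was checked on simulated data. Alternatives were other centring, filters, spot rules and blocks, local trends, the study's heteroscedastic test (the methods' t-test) and each replicate left out.

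Genes are named if called in any of 8 comparisons, or among the 3 smallest p-values of a comparison with fewer than 3 calls, or on a list of core factors. Members and lists were chosen with earlier results of these data known. Same-numbered samples deviated together (correlation over 0.1) in 36 of 40 pairs, and in 6 of 40 once dye was taken out, so the numbers, which share a dye, were not taken to pair the samples. Promoters came from RefSeq (42 of 47 genes matched). Plots used matplotlib 3.10.9 (Python 3.11.15).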

Additional observations from a re-analysis of the deposited data

Results flagged for a closer look

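In groups of 4, a sample was picked out where its gap to the nearest of the others was a larger share of the range of the group than Dixon's critical value for 4 samples. Chance does this in about 1 in 20 groups, and 7 of 135 groups of the 27 named genes were picked out. On the log2 scale, BYA replicate 4 read -0.78 for Eif2b1 (the others -0.38 to -0.37) and 2.80 for Eif4g3 (1.90 to 2.01). BYA replicate 2 read 0.86 for Eif2b4 (0.62 to 0.66). SNS replicate 2 read 4.02 for Eif2b2 (3.56 to 3.62), and SNS replicate 4 read 1.61 for Eif4ebp1 (1.25 to 1.29). BYP replicate 1 read 0.99 for Eif2s2 (0.80 to 0.82), and BNS replicate 4 read 0.73 for Eif4e2 (0.61 to 0.63).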

How the results depend on the processing

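The numbers of member genes called were 4 in BYS against BNS, 4 in BYA against BYS, 5 in BYP against BYS, 5 in BYS against SNS and 0 in the other comparisons. Settings moved them as follows, and the cause was not tested. Quantile normalization gave 9 in BYS against BNS, and taking SNS replicate 2 as Cy3 gave 7 there and 8 in BYS against SNS. Of the 13292 genes, quantile normalization called 1367 higher and 358 lower in BYS against BNS. With SNS replicate 2 as Cy3 the numbers were 2788 and 1256 there, and 1886 and 1134 in BYS against SNS. Without a random block the counts were 9, 8, 8 and 10 in the order above, 1 in BYA against BNS and 1 in BNS against SNS. In BYS against BNS that fit called 3171 of the 13292 genes higher and 1550 lower. In BYA against BYS it called 1283 and 1803, in BYP against BYS 1393 and 2544. In BYS against SNS it called 1225 and 1165, in BYA against BNS 329 and 77, and in BNS against SNS 23 and 389. Fits of the compared groups alone gave 8 in BYS against BNS and 2 in BYS against SNS. Among all genes they called 3571 higher and 1231 lower in BYS against BNS, and 6 and 169 in BYS against SNS. The slide as a random block gave 2 in BYP against BYS and 3 in BYS against SNS. Among all genes it called 138 higher and 1 lower in BYP against BYS, and 14 and 204 in BYS against SNS. The methods' t-test gave 7, 7, 5 and 8 unadjusted, with 5 in BYA against BNS, 2 in BYP against BNS, 4 in BNS against SNS and 4 in BYP against BYA, and 1 in each of the first 4 after adjustment. Among all genes the unadjusted test called 2634, 1610, 1872 and 2041 in the first 4 comparisons, and 1179, 847, 903 and 550 in the others. After adjustment it called 138 higher and 296 lower in BYS against BNS, and 11 and 0 in BYA against BYS. In BYP against BYS it called 46 and 6, and in BYS against SNS 26 and 126. The 2 steps added after seeing the data subtract the deviation of neighbouring spots. With all neighbours the counts were 1, 2, 1 and 1, with 1 in BNS against SNS (Eif1ad). Among all genes that step called 1021 higher and 449 lower in BYS against BNS, and 176 and 141 in BYA against BYS. The numbers were 270 and 267 in BYP against BYS, 30 and 85 in BYS against SNS, and 5 and 37 in BNS against SNS. With neighbours of like level they were 2 in each of the 4, with 1 in BYA against BNS, and Eif4g2 turned to -0.01 in BYA against BYS. Eif1a was called in its 4 comparisons with BYS under all 15 other settings and all replicates left out.

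Leaving out 1 replicate gave 4 to 5 in BYS against BNS, 4 to 4 in BYA against BYS, 4 to 7 in BYP against BYS, 5 to 7 in BYS against SNS and 0 to 0 in the others. Of the 13292 genes these fits called 411 to 1401 higher and 580 to 916 lower in BYS against BNS. In BYA against BYS they called 572 to 720 and 236 to 472, and in BYS against SNS 133 to 1098 and 470 to 895. In BYP against BYS they called 458 to 708 and 201 to 656. Eif3l in BYP against BYS passed in 2 of those 8 fits. Eif1ad was called lower in BYS against SNS without SNS replicate 2 or BYS replicate 4 (-0.70 and -0.80), and Eif2b1 in BYP against BYS without BYP replicate 3 (-0.56). With the replicate number as a block in place of dye, the counts were 4, 4, 5 and 5, and no call changed. A running median along the spot numbers, 75th percentile centring, the filter on dim genes, the brightest spot and the platform's symbols left the counts within 1.5 times. The 75th percentile moved the median difference of all genes in BYA against BYS from -0.11 to -0.22. The share of all genes called lower in BYA against BYS fell from 3.66% to 1.78% without BYS replicate 2 and 2.3% without BYA replicate 2. In BYP against BYS the shares of 5.36% higher and 4.33% lower were 3.45% and 1.51% without BYP replicate 1 and 3.54% and 1.57% without BYP replicate 4, and the lower share was 2.37% without BYS replicate 2. With SNS replicate 2 as Cy3 the lower shares were 11.9% in BYA and 16.1% in BYP.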
